A study of Homo sapiens with 3 samples.

Results

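Skipped exons were described for the zinc-finger genes of human chromosome 19 whose symbol is ZNF followed by a number and at most 1 letter. The members were every row of both deposited exon-skipping tables with such a symbol and that chromosome. The RS2 table held 455 such rows, in 378 exons of 161 genes, out of 40702 rows in 33745 exons of 10485 genes. The RS3 table held 491 such rows, in 404 exons of 162 genes, out of 42518 rows in 34977 exons of 10683 genes. Together the tables listed 444 member exons in 172 genes, of which 338 exons and 151 genes were in both. The rule used no measured value, but it was set with earlier results of these data known.

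All libraries came from BJ cells, an established fibroblast line of human foreskin, collected on day 8 after induced viral expression of OSKM (OCT4, SOX2, KLF4 and MYC), the factors that reprogram cells to pluripotency. Per the labels, the groups were SFRS11 siRNA, SMAD3 siRNA and non-targeting siRNA, with 1 library each. SFRS11, now named SRSF11, belongs to the SR-related splicing factors, and SMAD3 is a transcription factor that carries TGF-beta signals. In the tables a library coded RS2 and a library coded RS3 are set against the same other library, called the comparator here. No label ties these codes to a siRNA, so no value below is assigned to a knockdown.

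Each row gives a deposited p-value, a false discovery rate (FDR) and an inclusion difference between the libraries. The inclusion level of an exon is the fraction of transcripts spanning it in which it is kept, and the difference runs from -1 to 1. It is read as RS2 or RS3 minus the comparator, so a negative difference means that the exon was skipped more often in RS2 or RS3. Because both tables share the comparator, a value of that library alone moves both differences. In bulk RNA, a change of splicing within cells and a change in the mix of cells cannot be told apart. There is 1 library per group, so the deposited p-values compare libraries and not conditions. Read depth is unknown here.

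Most ZNF genes on chromosome 19 encode KRAB zinc-finger proteins, a family that expanded by repeated tandem duplication and now lies in clusters of near neighbours. The C-terminal zinc fingers, usually on 1 long last exon, read the DNA, and many members bind transposable elements. The N-terminal KRAB domain recruits the corepressor TRIM28 (KAP1), which brings the histone methyltransferase SETDB1, HP1 proteins and the NuRD complex and so silences the bound site. The KRAB A box, the part that contacts TRIM28, sits on a short exon of its own between the first exons and the finger exon.

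The exon that recurred among the members was 127 bases long. It is shown for the members the results turn on, 5′ to 3′ on the coding strand. Sequences are those of GENCODE 29 transcripts and coordinates are those of the deposited tables (hg19). The sequences of ZNF765 and ZNF525 were matched within their genes by length alone. Capitals mark GANGANTGG (reverse complement CCANTCNTC), the best conserved 9-base window of these exons, which was chosen from these same sequences. The exons of ZNF708, ZNF681, ZNF90 and ZNF91 come from neighbouring clusters in which most RS3 differences of this exon were below 0, the 96-base exon of ZNF253 had the smallest FDR of the uncalled exons, ZNF765 and ZNF525 cannot be told apart by this exon, and ZNF808 lacks the motif.
ZNF708 (chr19:21493303-21493429, minus strand): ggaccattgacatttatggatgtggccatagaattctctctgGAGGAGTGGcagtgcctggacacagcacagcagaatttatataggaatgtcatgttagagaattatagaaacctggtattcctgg
ZNF681 (chr19:23938227-23938353, minus strand): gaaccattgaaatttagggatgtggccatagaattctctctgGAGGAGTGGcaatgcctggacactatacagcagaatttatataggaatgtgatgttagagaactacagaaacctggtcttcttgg
ZNF90 (chr19:20215048-20215174, plus strand): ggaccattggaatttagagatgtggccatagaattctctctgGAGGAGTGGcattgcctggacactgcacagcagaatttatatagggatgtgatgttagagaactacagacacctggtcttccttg
ZNF91 (chr19:23557440-23557566, minus strand): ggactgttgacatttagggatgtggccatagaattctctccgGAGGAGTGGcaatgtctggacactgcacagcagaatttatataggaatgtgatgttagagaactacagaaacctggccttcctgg
ZNF253 (chr19:19989290-19989416, plus strand): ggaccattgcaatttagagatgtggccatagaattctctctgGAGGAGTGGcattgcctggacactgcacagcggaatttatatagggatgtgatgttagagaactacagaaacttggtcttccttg
ZNF765 (chr19:53905318-53905444, plus strand): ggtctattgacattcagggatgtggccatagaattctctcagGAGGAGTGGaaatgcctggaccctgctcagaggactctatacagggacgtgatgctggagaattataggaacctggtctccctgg
ZNF525 (chr19:53879023-53879149, plus strand): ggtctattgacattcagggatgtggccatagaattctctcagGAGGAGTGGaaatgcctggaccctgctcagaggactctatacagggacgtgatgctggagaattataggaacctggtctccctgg
ZNF808 (chr19:53050765-53050891, plus strand): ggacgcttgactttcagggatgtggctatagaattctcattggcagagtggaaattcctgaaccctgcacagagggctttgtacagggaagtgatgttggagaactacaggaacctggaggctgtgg
ZNF253, next coding exon (chr19:19990860-19990955, plus strand): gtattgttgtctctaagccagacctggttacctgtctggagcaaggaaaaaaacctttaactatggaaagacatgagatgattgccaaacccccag

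The 127-base exon made up 68 of the 444 member exons (15.3%), in 64 genes, against 0.860% of all exons in the tables. Its share was 6.78% among exons of ZNF genes on other chromosomes and 0.673% among the other genes of chromosome 19. The members were 1.13% of all exons but 20.1% of the exons of this length. The next most frequent member lengths were 96 bases with 19 exons and 122 bases with 13 exons. Member exons ran between 21 and 2142 bases with a median of 118.

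The sequences of the 127-base exons were related but seldom equal. Of 66 such exons with a matched sequence, 60 held GANGANTGG (90.9%), always from base 43 and always on the coding strand. The 6 without it were in ZNF180, ZNF223, ZNF256, ZNF480, ZNF808 and ZNF85. On either strand the motif was in 26 of 369 member exons of other lengths (7.05%) and in 22 of 34 exons of 127 bases in ZNF genes elsewhere (64.7%). Of all 2622 annotated exons of 127 bases in GENCODE 29, those of ZNF genes included, 353 held it (13.5%). None of the 18 matched 96-base member exons held it. Over 64 positions the median identity between pairs of 127-base exons was 64.6%, and the exons of ZNF525 and ZNF765, as well as those of ZNF417 and ZNF587, were identical. Counts for these pairs are uncertain, since reads within the exon do not separate the genes. The symbol ZNF417 also stands under a further identifier, ENSG00000268750. Its 127-base exon at 58350391 to 58350517 is listed under ZNF587B as well. Its other 127-base exon, at 58367475 to 58367601, has the position of the ZNF587 exon.

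**Figure D1:**
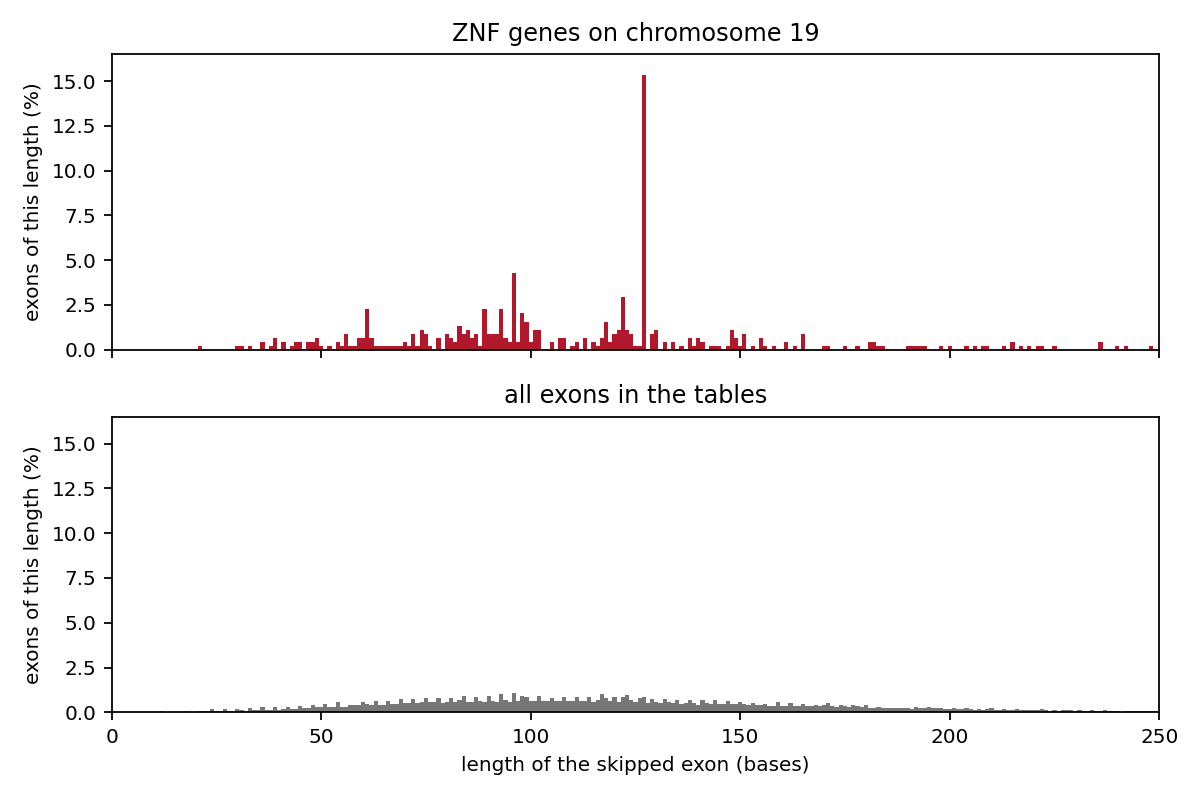
Length of skipped exons (horizontal axis, bases, longer exons not drawn) against the percent of exons with each length (vertical axis), for ZNF genes of chromosome 19 above and all exons of both tables below. The member exons show a single tall bar at 127 bases (15.3%) that the exons of all genes lack (0.860%).

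Where it is coding, a 127-base exon shifts the reading frame when it is skipped, since its length is not a multiple of 3. Among member exons, 150 of 444 (33.8%) had a length divisible by 3, against 41.1% of all exons. Without the 127-base exons the member share was 39.9% of 376 exons. By annotation, 195 member exons were coding throughout, 115 were partly coding, 93 lay in the 5′ UTR, 6 in the 3′ UTR and 26 in noncoding transcripts, and 9 were not matched. Each exon took the first of these classes, in this order, that any of its transcripts gave. It may be of another class in other transcripts. Of the 127-base exons, 61 were coding throughout, and of the 96-base exons, 16.

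Inclusion differences of the members were broad in both tables, yet few passed the call. In the RS2 table, 189 of 455 member rows (41.5%) had an absolute difference of at least 0.1, against 27.5% for ZNF genes elsewhere, 13.6% for other genes of chromosome 19 and 19.2% for all rows. In the RS3 table, 222 of 491 member rows (45.2%) did, against 35.0% for ZNF genes elsewhere, 13.5% for other genes of chromosome 19 and 21.2% for all rows. The median absolute difference of the members was 0.075 in RS2 and 0.086 in RS3, against 0.018 in RS2 and 0.020 in RS3 over all rows. Differences of at least 0.5 were listed for 28 member rows (6.15%) in RS2 and 33 (6.72%) in RS3, against 3.61% of all rows in RS2 and 3.45% in RS3.

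The spread was nearly even in RS2 and leaned to lower inclusion in RS3. Of the RS2 member rows of at least 0.1 in size, 98 were lower and 91 higher. Of the RS3 ones, 138 were lower and 84 higher, a lower share of 62.2%, against 58.1% over all RS3 rows of that size. For ZNF genes elsewhere the lower share was 61.3% in RS3, close to that of the members. The median member difference was -0.002 in RS2, with quartiles of -0.0795 and 0.071, and -0.014 in RS3, with quartiles of -0.1245 and 0.0515. Over all rows the medians were 0 in RS2 and -0.001 in RS3. By gene, the median was below 0 for 82 of 161 members in RS2 (50.9%, against 44.9% of all genes) and for 93 of 162 in RS3 (57.4%, against 52.3%).

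**Figure D2:**
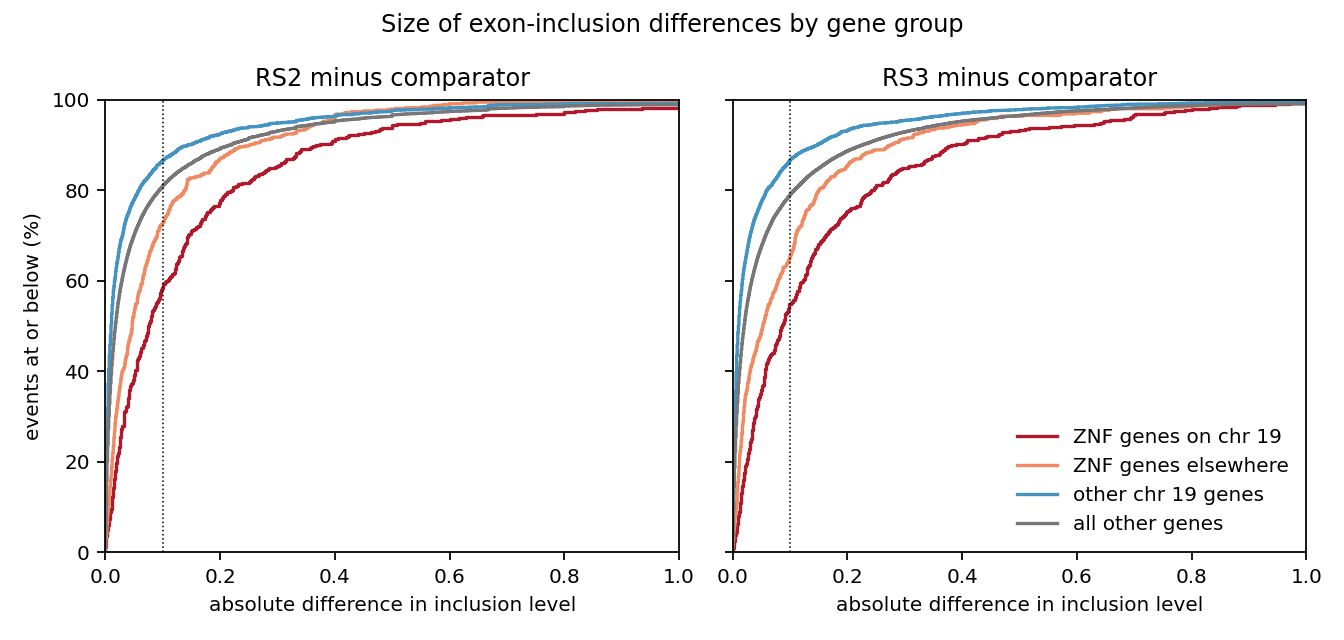
Cumulative percent of events (vertical axis) at or below an absolute inclusion difference (horizontal axis) for the RS2 and RS3 tables, by gene group, with a dotted line at 0.1. The curve of the ZNF genes on chromosome 19 lies lowest at 0.1 in both panels, because 41.5% (RS2) and 45.2% (RS3) of their events reach that size.

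An event was called when its deposited FDR was under 0.05 and its absolute difference at least 0.1. In RS2, 0 of 455 member rows were called, where 0.0712% of all rows were (0.0442% lower and 0.027% higher). Before adjustment, 23 RS2 member rows (5.05%) had a deposited p-value under 0.05, against 4.52% of all rows. In RS3, 3 of 491 member rows (0.611%) were called, where 0.967% of all rows were. All 3 had lower inclusion in RS3, a direction in which 0.736% of all RS3 rows were called (0.23% were higher). Before adjustment 42 RS3 member rows (8.55%) had a deposited p-value under 0.05, 33 lower and 9 higher, against 7.61% of all rows. The members' share of calls was thus near or below that of all rows in either table, although their differences were wider. ZNF genes elsewhere had 0 of 568 rows called in RS2 and 9 of 605 (1.49%) in RS3.

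**Figure D3:**
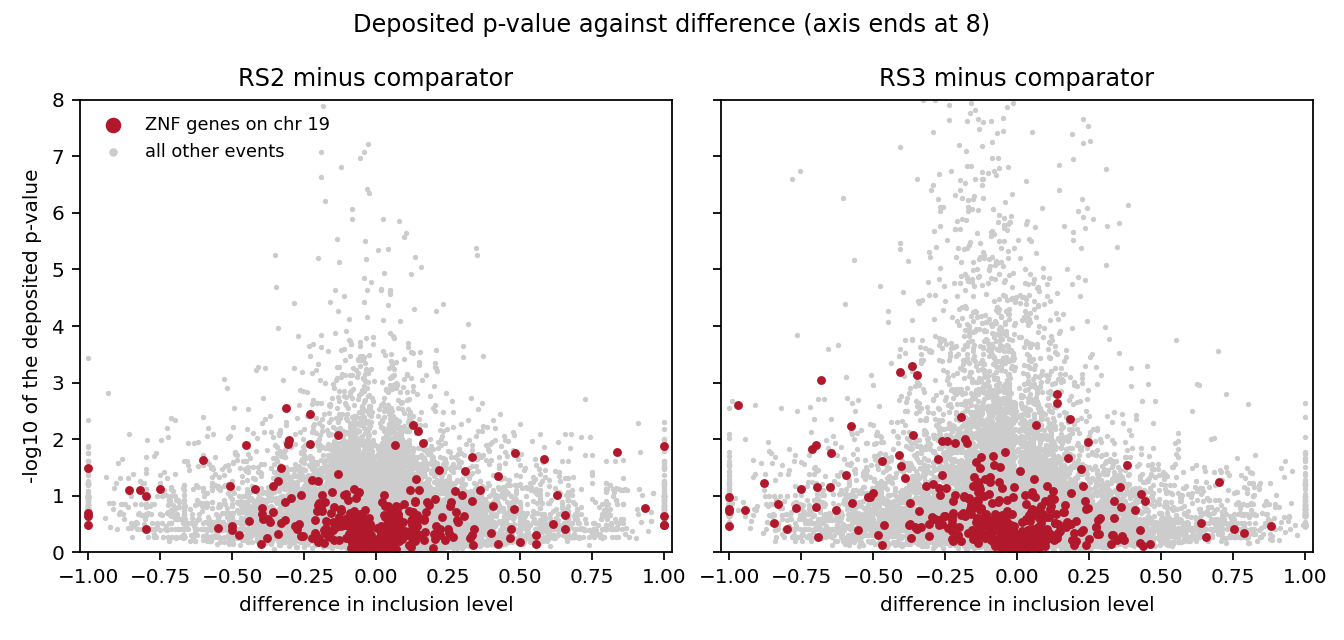
Minus log10 of the deposited p-value (vertical axis, ending at 8, with events at a p-value of 0 or beyond the axis left out) against the inclusion difference (horizontal axis) in the RS2 and RS3 tables, with ZNF genes of chromosome 19 in red over all other events in grey. The red points spread widely along the horizontal axis and stay low on the vertical one, and the 3 called RS3 members lie left of 0.

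The called member exons were in ZNF708, ZNF225 and ZNF761, each listed in a single row per table. In ZNF708 (ENSG00000182141) it was the 127-base coding exon shown above: the authors' deposited table gave -0.407 in RS3, at an FDR of 0.0407, and 0.081 in RS2, at an FDR of 1. The exon was thus included less in RS3 than in the comparator, while the RS2 value lay on the other side of 0. The other ZNF708 exons were uncalled, with RS3 differences in the authors' deposited table of -0.183 for 124 bases annotated as 5′ UTR and -0.166 for a partly coding exon of 182 bases, against RS2 differences of 0.008 and 0.300.

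Both other called exons are annotated as 5′ UTR. The 165-base exon of ZNF225 (ENSG00000256294, 44618202 to 44618366, plus strand) fell by 0.365 in RS3 by the authors' deposited table, at an FDR of 0.0339, and stood at -0.094 in RS2. Its annotation rests on its length alone. The 123-base exon of ZNF761 (ENSG00000160336) lies between 53948254 and 53948376 on the plus strand. It stood in the authors' deposited table at -0.346 in RS3, at an FDR of 0.0462, and -0.198 in RS2, at an FDR of 1. The next ZNF761 exon, 111 bases of 5′ UTR, was at -0.004 in RS3 and 0.143 in RS2 by the authors' deposited table.

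Members just outside the threshold lay on both sides of 0. The 96-base coding exon of ZNF253 had a difference of -0.682 in RS3 by the authors' deposited table, at an FDR of 0.0534, and -0.329 in RS2. The 127-base exon of the same gene was at 0.060 in RS3 and 0.005 in RS2 by the authors' deposited table. ZNF561 had 2 overlapping partly coding exons next in order: its 148-base exon was at 0.139 in RS3 by the authors' deposited table, at an FDR of 0.0814, and 0.050 in RS2. The 138-base form was listed at 0.138 (FDR 0.106) and -0.015 in RS3 and at 0.081 and -0.002 in RS2 by the authors' deposited table. A 209-base partly coding exon of ZNF415 was at -0.971 in RS3 by the authors' deposited table, at an FDR of 0.112, and its RS2 rows gave -1 and -0.253. The 123-base coding exon of ZNF772 was at -0.193 in RS3 by the authors' deposited table, at an FDR of 0.161, and at -0.085 in RS2.

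In RS2 the members nearest to the threshold had an FDR far above it. ZNF43 led with overlapping 5′ UTR exons of 90 and 225 bases, at -0.313 (FDR 0.418) and -0.228 (FDR 0.485) in RS2 by the authors' deposited table. In RS3 these exons were at 0.016 and 0.002 in the authors' deposited table. The 48-base 5′ UTR exon of ZNF561 was listed at 0.129, at an FDR of 0.591, and at -0.315 in its other RS2 row in the authors' deposited table, against RS3 rows of -0.648 and 0.022. A 62-base 5′ UTR exon of ZNF266 was at 0.145 (FDR 0.646) in RS2 and -0.084 in RS3 by the authors' deposited table. The 81-base 5′ UTR exon of ZNF304, a gene whose protein recruits corepressors, was at -0.133 (FDR 0.697) in RS2 and -0.020 in RS3 by the authors' deposited table.

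Several members had RS3 differences of large size with an FDR under 0.5 that missed the call. The 127-base exon of ZNF681 was at -0.698 (FDR 0.318) in RS3 and -0.174 in RS2 by the authors' deposited table. The 5′ UTR exons of ZNF417, a gene whose protein binds endogenous retroviruses, gave -0.713 and -0.124 for 101 bases and -0.646 and -0.092 for 194 bases in RS3 by the authors' deposited table. In RS2 they gave -0.600 and -0.106 for 101 bases and 0.097 and -0.208 for 194 bases in the authors' deposited table. The 102-base 5′ UTR exon of ZNF808 was at -0.578 (FDR 0.203) in RS3 and -0.212 in RS2 by the authors' deposited table, while its 127-base exon was at 0.078 in RS3 and 0.121 in RS2.

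Other exons of this kind were smaller in size, and only those of the next largest genes are given here. In the authors' deposited table, the RS3 differences were -0.469 for an 83-base exon of ZNF221, -0.409 for a 54-base exon of ZNF780B, -0.275 for a 105-base exon of ZNF490 and -0.261 for a 45-base exon of ZNF793. The first 3 stood at -0.150, at -0.060 and -0.182 in separate rows, and at -0.190 in RS2 by the authors' deposited table, and the ZNF793 exon was listed in RS3 alone. A 122-base exon of ZNF814 had 4 RS3 rows, at -0.361, -0.272, -0.184 and 0.066, and 2 RS2 rows, at 0.222 and 0, in the authors' deposited table. An FDR under 0.5 in at least 1 table was listed for 30 member exons. Of them, 22 had an RS3 difference below 0 and 8 had one above 0. The highest were 0.248 for a 118-base exon of ZNF468 (FDR 0.297) and 0.186 for a 92-base exon of ZNF714 (FDR 0.17). In the RS3 table alone such an FDR was listed for 29 member rows (5.91%), 23 of them lower (79.3%), against 5.53% of all RS3 rows, of which 1661 of 2350 were lower (70.7%). Both shares of the members were thus near those of all rows.

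**Figure D4:**
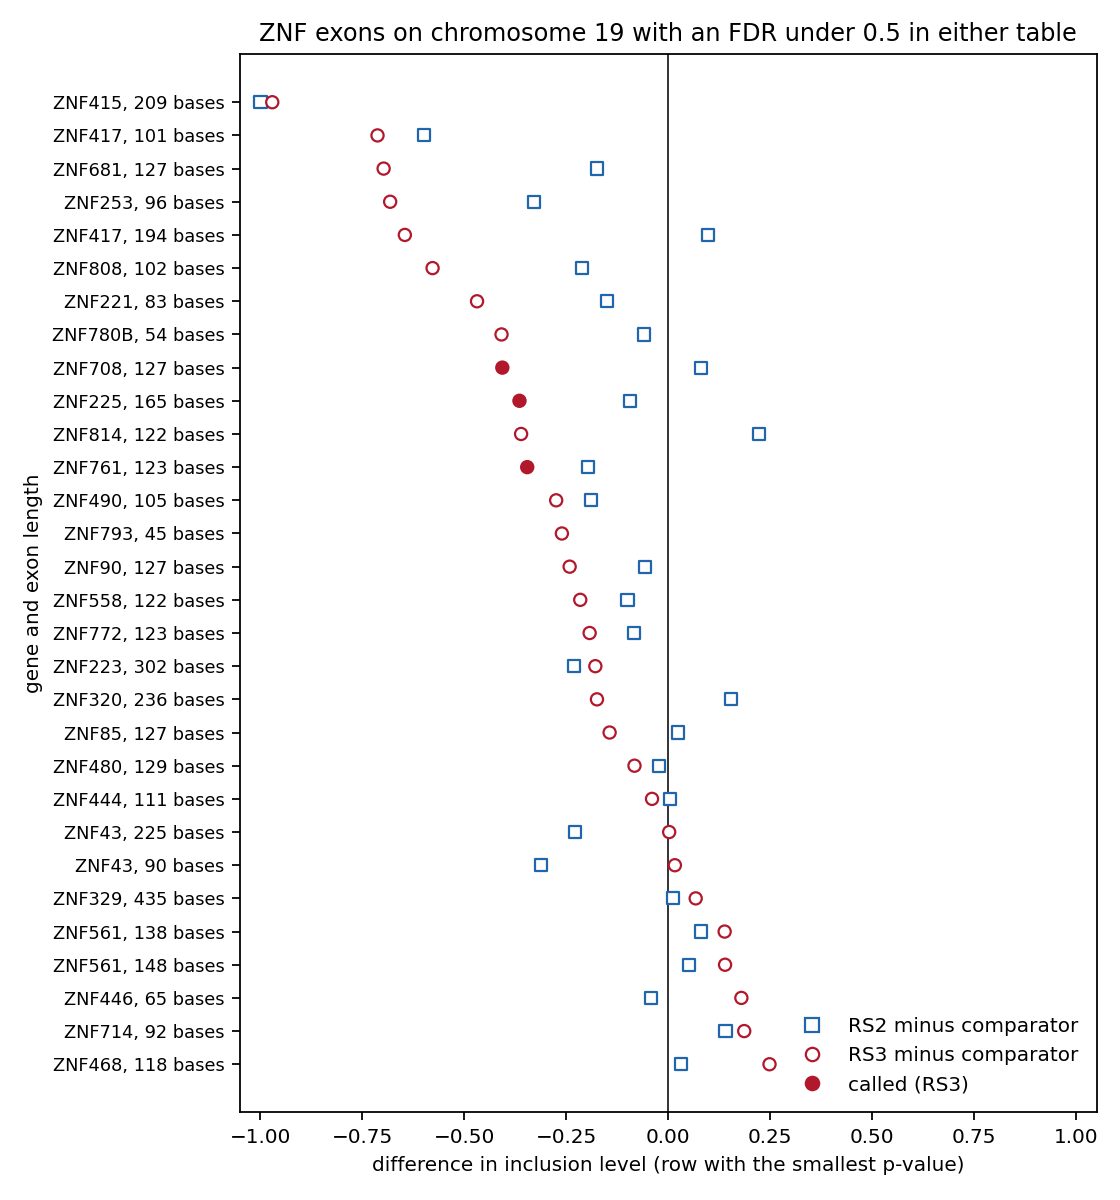
Inclusion difference (horizontal axis) in RS2 (squares) and RS3 (circles) for the 30 member exons with a deposited FDR under 0.5 in either table, ordered by the RS3 value (vertical axis, gene and exon length), with the row of smallest p-value per exon. Filled symbols mark the 3 called exons, and 22 of the 30 RS3 values lie below 0; the choice of exons by FDR used these values, and both differences share the comparator.

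The size of the differences is given by kind of exon without a test. Coding exons had an absolute difference of at least 0.1 in 35.3% of RS2 rows and 42.7% of RS3 rows. For coding exons of neither 127 nor 96 bases the share was 40% in RS2 and 40.5% in RS3. In 5′ UTR exons the share was 48.0% in RS2 and 45.5% in RS3, and in partly coding exons 42.7% in RS2 and 47.9% in RS3. Of the 127-base exons, 18 of 72 RS2 rows were at that size (25%), 6 lower and 12 higher. In RS3, 33 of 81 rows of this length reached it (40.7%), 21 lower and 12 higher. Their median difference was 0.0125 in RS2 and -0.030 in RS3. The 96-base exons had medians of -0.043 in RS2 and -0.024 in RS3.

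Other exons of 127 bases were set beside these. In ZNF genes on other chromosomes, 16 RS3 rows of this length were lower by at least 0.1 and 1 was higher, of 47 rows with a median of -0.060. In the genes that are neither ZNF genes nor on chromosome 19, 36 were lower and 21 higher, of 249 rows with a median of 0.001. In RS2 the counts were 7 lower and 4 higher of 42 rows in ZNF genes elsewhere, and 27 lower and 28 higher of 240 rows in the other genes. In each of these gene groups more RS3 rows of this length were lower than higher by at least 0.1, and the difference between the groups was not tested.

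Along the chromosome the members fell into 16 runs when a gap of over 1 Mb between listed exons split a run. The 8 runs with 5 or more genes held 160 of the 172 genes, and the largest was that of ZNF628 to ZNF446 near the end of the long arm, with 40 genes. The 127-base exons are given by run without a test, since the runs set apart here were chosen after their values were seen. Between 19783019 and 24289445, in the neighbouring runs of ZNF101 to ZNF257 and ZNF724P to ZNF254, 16 of 18 such exons had an RS3 difference below 0 by the row of smallest p-value. The 18 exons had a median of -0.0955, with 9 at -0.1 or lower and 0 at 0.1 or higher. Over all 22 RS3 rows of these exons, 18 were below 0, the median was -0.051 and 1 row was at 0.1 or higher. In RS2 these runs had 8 of 16 such exons below 0, with a median of -0.006.

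In all other runs, 22 of 45 exons of 127 bases were below 0 in RS3, 9 at -0.1 or lower and 10 at 0.1 or higher, with a median of 0.005. A lean to negative values was also seen in the run of ZNF653 to ZNF791, where 6 of 7 were below 0 in RS3, with a median of -0.108, 4 at -0.1 or lower and 0 at 0.1 or higher. Exons of other lengths in the 2 neighbouring runs had a median of -0.046 in RS3, with 23 of 40 below 0. Over all exons of the RS3 table the median was -0.001 and 51.5% were below 0. Values in the authors' deposited table for these runs included -0.242 in RS3 and -0.057 in RS2 for ZNF90, and -0.222 in RS3 and 0.027 in RS2 for ZNF724P. The 127-base exon of ZNF43 was at -0.140 in RS3 and 0.218 in RS2 by the authors' deposited table. ZNF253 and ZNF737 had RS3 values above 0 in their single rows, which the authors' deposited table listed at 0.060 and 0.076. Rows of both signs were given for ZNF66, at -0.348 and 0.366 in RS3 and -0.368 and 0.5 in RS2 by the authors' deposited table, all at an FDR of 1. The 127-base exon of ZNF85 likewise had RS3 rows of -0.144 and 0.046 in the authors' deposited table. The remaining 14 exons had no RS3 row above 0. The exons of these genes are close relatives, as the sequences above show, although each differed by at least 4 bases from its nearest relative among the members. The part of reads that match more than 1 gene was not tested.

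**Figure D5:**
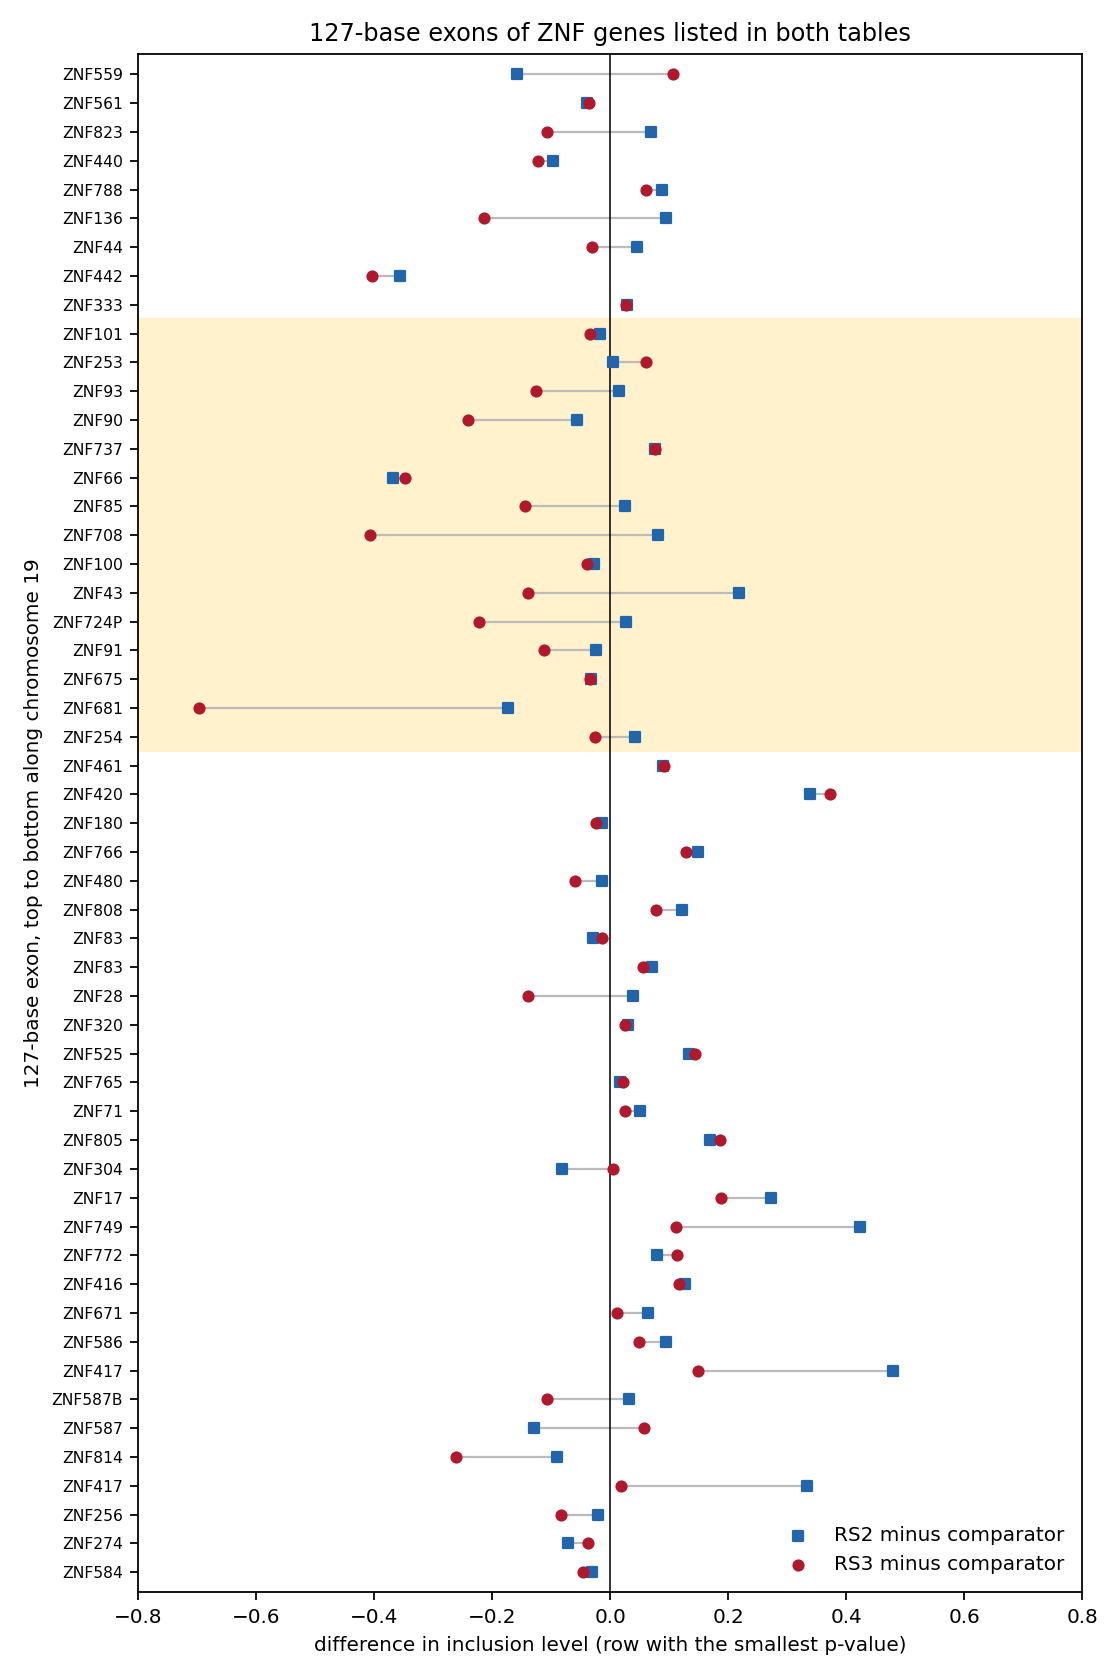
Inclusion difference (horizontal axis) of the 53 member exons of 127 bases listed in both tables, in RS2 (squares) and RS3 (circles), from the row of smallest p-value per exon and table, ordered along chromosome 19 from top to bottom (vertical axis, gene). The shaded band marks the 15 exons of the 2 neighbouring runs, where all drawn RS3 values except those of ZNF253 and ZNF737 lie below 0; the rows of ZNF66 and ZNF85 that are not drawn include positive RS3 values.

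Several 127-base exons in other runs had positive values in both tables. ZNF420 was at 0.373 in RS3 and 0.339 in RS2 by the authors' deposited table, ZNF17 at 0.188 in RS3 and 0.273 in RS2, and ZNF805 at 0.185 in RS3 and 0.168 in RS2, all with an FDR above 0.5. ZNF749 was at 0.111 in RS3 and 0.423 in RS2 by the authors' deposited table. ZNF442 was negative in both, at -0.404 in RS3 and -0.357 in RS2 by the authors' deposited table. Of the identical pairs, ZNF525 was at 0.143 in RS3 and 0.133 in RS2, and ZNF765 at 0.021 in RS3 and 0.016 in RS2, in the authors' deposited table. In the other pair, ZNF417 (ENSG00000173480) was at 0.018 in RS3 and 0.333 in RS2, and ZNF587 (ENSG00000198466) at 0.057 in RS3 and -0.129 in RS2, in the authors' deposited table. The position of this ZNF587 exon was also listed under ENSG00000268750, at -0.088 in RS3. The values of ZNF420, ZNF17, ZNF805, ZNF749 and ZNF442 are the differences of 2 libraries each from 1 comparator and are not independent of each other.

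A few genes supplied many rows. ZNF561 had 42 rows over both tables, ZNF83 had 25, ZNF320 had 22, and ZNF415 and ZNF417 had 21 each, while 55 genes had a single exon. Rows of the same exon could differ widely: the 161-base 5′ UTR exon of ZNF266 was listed at 0.936 and 0.133 in RS2 by the authors' deposited table, both at an FDR of 1. The 155-base coding exon of ZNF415 was listed at 0.753 and 0.005 in RS3 by the authors' deposited table. The highest ZNF83 difference with a p-value under 0.05 was that of a partly coding exon of 138 bases, at 0.483 in RS2 (FDR 0.885) and 0.381 in RS3 (FDR 0.509) in the authors' deposited table. For ZNF320 the smallest FDR was that of a 236-base exon of a noncoding transcript, at -0.175 and -0.120 in RS3 and 0.154 and -0.015 in RS2 by the authors' deposited table, the smallest FDR being 0.310.

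A chosen list of 8 members known to bind transposable elements, which leaves out others such as ZNF417, had 7 genes in the tables. Of their 21 RS2 rows and 23 RS3 rows, 0 were called, where 0.0712% of all rows in RS2 and 0.967% in RS3 were. With so few rows, a count of 0 does not set these genes apart. Of their rows, 8 of 21 (38.1%) in RS2 and 14 of 23 (60.9%) in RS3 had an absolute difference of at least 0.1, against 41.5% of all member rows in RS2 and 45.2% in RS3. Their median difference was 0.010 in RS2 and -0.044 in RS3. ZNF91, a repressor of SVA elements, had its 127-base exon at -0.112 and -0.044 in RS3 and at -0.024 and -0.018 in RS2 by the authors' deposited table. ZNF93, which binds L1 elements, had its 127-base exon at -0.126 in RS3 and 0.014 in RS2 by the authors' deposited table. The single ZNF430 exon, of 93 bases, was at -0.129 in RS3 and 0.011 in RS2 by the authors' deposited table. ZNF611 had RS3 values of both signs in the authors' deposited table. Its 74-base coding exon was at 0.230 in RS3 and 0.010 in RS2, and its 102-base 5′ UTR exon at -0.292 in RS3 and -0.158 in RS2. ZNF649 was at 0.003 in RS3 and 0.017 in RS2. The values given here for these genes all had an FDR above 0.5.

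The corepressors that KRAB proteins act through were listed for 28 of 33 symbols, of which FAM208A (listed) and TASOR (not listed) name the same gene. None was called in RS2, where 25 of 10485 genes had a called event, and 4 were called in RS3, where 327 of 10683 genes had one. A 102-base exon of CHD3, a NuRD remodeller, had RS3 rows of 0.144 (FDR 9.6e-07) and -0.004 in the authors' deposited table. Inclusion in RS3 rose for a 48-base exon of DNMT1, the maintenance DNA methyltransferase, by 0.145 (FDR 3.77e-05), in the authors' deposited table. RS3 inclusion fell for a 51-base exon of MTA1, a NuRD subunit, with rows of -0.268 and -0.213 in the authors' deposited table. It also fell for a 165-base exon of PPHLN1, a HUSH subunit, at -0.190. For these exons the authors' deposited table gave RS2 values of 0.075 and -0.015 (CHD3), 0.025 (DNMT1), -0.127 and -0.072 (MTA1) and -0.035 (PPHLN1). The median of the list was -0.001 in RS2 and 0.001 in RS3. In RS2 8.76% of its rows and in RS3 14.0% reached 0.1 in size, against 19.2% and 21.2% of all rows.

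Splicing tables hold no expression level, so marker genes could be checked only for being listed. Of the fibroblast markers 8 of 9 had a listed exon, of the pluripotency markers 1 of 5 (SALL4) and of the epithelial markers 3 of 5. A gene without a listed exon may still be expressed, so these counts do not identify the cells.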

How the data were processed

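The submitters' processing notes name hg19, STAR and FastQC without versions, and no source used here gives the program behind the event calls. Differences in inclusion level (a score between -1 and 1), p-values and FDR are those the authors deposited, 1 row per event. The 4 columns of inclusion level per library were not used, since no label ties them to a sample. They were looked at once to settle the sign of the difference. Rows were selected by symbol and chromosome, and 6 exon positions stand under more than 1 gene identifier. Member exons were matched to GENCODE 29 exons (GRCh38) of the same gene by length and spacing (375 of 444) or by length alone (60), and no coordinate was converted. Sequences were not compared with hg19. Exons were matched between tables on gene, strand, start and end, because the tables list no flanking exons. Named genes were those called, the 10 largest uncalled with an FDR under 0.5 and the 5 nearest to the threshold per table, those with most rows, and those with a result of their own above, which were chosen after their values were seen. The members and lists were chosen with earlier results of these data known. No test was run, for there are no replicates. With no read counts, the depth is unknown. The adjustment and the matching were tested on simulated data. Python 3.11.15, pandas 2.3.3 and matplotlib 3.10.9 were used.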

Additional observations from a re-analysis of the deposited data

Results flagged for a closer look

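Exons of the members named above are given here where each table held a single row for them, the differences lay on opposite sides of 0, and either 1 of them was called or both were at least 0.1 in size. Other member exons also had differences of opposite sign. The difference between the tables was not tested, and both share the comparator library. In the authors' deposited table, the 127-base exon of ZNF708 was at 0.081 in RS2 and -0.407 in RS3, and its 182-base exon at 0.300 in RS2 and -0.166 in RS3. The 127-base exon of ZNF43 was at 0.218 in RS2 and -0.140 in RS3 by the authors' deposited table. The 171-base 5′ UTR exon of ZNF266 was at 0.143 in RS2 and -0.156 in RS3 by the authors' deposited table.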

How the results depend on the processing

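Of 62 values under alternative settings for 14 results, 54 kept their size or call and 8 moved. Some of the 54 could not move, since a count of 0 stays 0 under stricter settings. A reversed sign was looked for only between rows of a called exon. Each called exon had a single row, so none could appear. A setting chosen after seeing the data put a deposited p-value under 0.05 in place of the FDR and kept the minimum difference of 0.1. In RS2, 22 member rows passed (4.84%, against 2.21% of all rows), 11 lower and 11 higher. In RS3, 35 passed (7.13%, against 3.98% of all rows). Of these 35, 28 were lower (80.0%, against 70.0% over all rows that passed) and 7 higher. Without the minimum difference the member shares were 5.05% in RS2 and 8.55% in RS3, against 4.52% and 7.61% of all rows. With an FDR under 0.01, 0 RS3 member rows passed, so 0 were lower. With an FDR under 0.1, 5 passed in RS3 (1.02%, against 1.20% of all rows), 1 of them higher. The calls of ZNF708, ZNF225 and ZNF761 were the same genes with a minimum difference of 0.05 or 0.2, a recomputed Benjamini-Hochberg adjustment, 1 row per exon, single-row exons alone, or without exon positions under more than 1 gene identifier. No paired analysis was possible because each group has 1 library and the deposited values carry no replicate. For the same reason no replicate could be left out. The planned match of events on their flanking exons was not run, because the tables list none. Unknown depth limits every single difference.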
